A study of Mus musculus with 7 samples.

Results

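The 10 genes described here encode enzymes that make or remodel the phospholipids of liver cells: Chka, Pcyt1a, Pcyt2, Pemt, Ptdss1, Ptdss2, Pisd, Lpin1, Lpin2 and Lpcat3. They were found by symbol among 21537 mouse protein-coding genes with a known strand on the GRCm38 build. A window was drawn for each gene, from 50 kb before its span to 50 kb after it, and every peak with its midpoint in the window was taken. The 10 windows held 494 of the 245004 peaks in 6 lists of nuclear receptor binding. The values are binding positions and peak scores, and no expression of these genes was measured in these libraries.

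Binding was measured in the liver of wild type male C57BL/6 mice aged 3 months, by chromatin immunoprecipitation followed by sequencing (ChIP-seq). They ate control chow or chow containing RA, retinoic acid, with a duration of 1 day in the labels and a longer one in the study's methods, so the time on the diet cannot be given with certainty. The chromatin was precipitated for RARα and RARβ, the α and β receptors of retinoic acid, and for RXRα, their α type retinoid X partner. This gave 6 ChIP libraries, and the 1 input library has no peak list. The study's methods set a background cutoff relative to the input signal, so the peaks and scores may depend on that library. Each receptor and diet had 1 library, so no difference between diets or receptors could be checked against replicates, and no test was run.

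Phosphatidylcholine and phosphatidylethanolamine are the main phospholipids of cell membranes. In the Kennedy pathway choline or ethanolamine is phosphorylated, joined to cytidine diphosphate and transferred to diacylglycerol, and hepatocytes also make phosphatidylcholine by methylating phosphatidylethanolamine. Phosphatidylserine arises by exchange of the head group and can be decarboxylated back to phosphatidylethanolamine in mitochondria. RARs are nuclear receptors activated by RA that bind DNA with RXR, and RXRα is also the partner of other lipid sensing receptors in liver.

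The RARα, RARβ and RXRα lists held 35521, 14968 and 61128 peaks with control chow, and 44296, 29467 and 59624 with RA. The score is the peak caller's own value, 50 or more in every list, and it was not normalized between libraries. Each peak is therefore placed by its rank within its own list, written as the top percent of that list, where a small value is a high score. The number of reads behind each list is not known from the files. Marker genes of liver cell types were checked for a peak within 10 kb of a start. Of 6 hepatocyte markers 6 had one in both RXRα lists (62.3% and 62.7% of all genes). In the RARα lists 3 and 4 had one under control and RA (62.9% and 64.3% of all genes), and in the RARβ lists 3 and 5 (45.0% and 55.7%). Markers of other cell types also had peaks. Of 3 sinusoidal endothelium markers RARα had 2 and 3, RARβ 0 and 2 and RXRα 1 and 1. The stellate cell marker Lrat had RARα peaks on both diets, and the other 2, Des and Reln, had none in any list. The cholangiocyte marker Sox9 had peaks in all lists but RARβ control, and the other 2, Krt19 and Epcam, had none. The 3 Kupffer cell markers had none. Binding at a marker does not measure its expression, so the tissue could not be checked by it.

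Promoter sequences are shown for 5 starts, 4 of them overlapped by peaks of all 6 lists (Pemt, Pcyt1a, Lpcat3, Pisd) and 1 by none (Lpin1). Each line gives the 250 bases before the start in RefSeq (GRCm38.p6), 5′ to 3′ on the gene's strand, in lower case. Capitals mark a nuclear receptor half-site, searched as AGGTCA or its variants GGGTCA and AGTTCA, and as GGTTCA, on both strands.
Pemt, inner start (chr11:60037006-60037255, minus strand): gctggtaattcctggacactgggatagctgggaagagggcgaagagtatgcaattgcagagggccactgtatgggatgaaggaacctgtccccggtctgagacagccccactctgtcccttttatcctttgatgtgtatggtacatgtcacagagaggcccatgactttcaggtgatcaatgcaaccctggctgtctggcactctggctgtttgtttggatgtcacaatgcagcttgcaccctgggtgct
Pcyt1a, first start (chr16:32430671-32430920, plus strand): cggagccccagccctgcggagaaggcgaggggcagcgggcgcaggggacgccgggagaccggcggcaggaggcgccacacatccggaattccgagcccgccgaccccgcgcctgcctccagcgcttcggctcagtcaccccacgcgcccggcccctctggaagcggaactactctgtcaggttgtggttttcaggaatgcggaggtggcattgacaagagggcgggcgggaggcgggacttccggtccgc
Lpcat3 (chr6:124662854-124663103, plus strand): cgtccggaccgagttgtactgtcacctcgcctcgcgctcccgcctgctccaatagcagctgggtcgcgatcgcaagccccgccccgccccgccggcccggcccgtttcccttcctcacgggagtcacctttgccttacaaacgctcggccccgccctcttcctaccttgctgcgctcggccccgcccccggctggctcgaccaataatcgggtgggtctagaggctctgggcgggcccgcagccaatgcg
Pisd, outer start (chr5:32785627-32785876, minus strand): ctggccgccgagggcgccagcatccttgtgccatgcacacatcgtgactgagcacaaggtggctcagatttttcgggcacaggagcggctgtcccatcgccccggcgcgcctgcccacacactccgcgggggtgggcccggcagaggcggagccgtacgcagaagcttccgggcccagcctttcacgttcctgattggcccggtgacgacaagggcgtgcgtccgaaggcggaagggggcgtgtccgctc
Lpin1, inner start (chr12:16610967-16611216, minus strand): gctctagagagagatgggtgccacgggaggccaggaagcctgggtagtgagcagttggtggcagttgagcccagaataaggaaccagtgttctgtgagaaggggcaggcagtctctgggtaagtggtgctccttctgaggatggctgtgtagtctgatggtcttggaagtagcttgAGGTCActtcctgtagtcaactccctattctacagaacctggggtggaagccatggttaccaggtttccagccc

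The RefSeq promoter table held 14 starts of 8 of the 10 genes, with no entry for Ptdss1 and Pcyt2. Over its 300 bases, from 250 before the start to 50 after it, a half-site was found in 5 of the 14, against 43.7% of all 32851 promoters. The Pemt inner promoter held GGGTCA on the strand opposite to the gene, at 2 to 7 bases after the start. The Lpin1 inner promoter held AGGTCA at 74 to 69 bases before its start, and the Pcyt1a start at position 32431230 held 3 half-sites. No direct repeat of these half-sites with a spacing of 1, 2, 4 or 5 bases was found in the 14, and such repeats were rare everywhere, in 0.222%, 0.268%, 0.0822% and 0.0974% of all promoters. The promoters covered by all lists differed in base composition. The GC content was 71.0% at Lpcat3, 70.0% at the Pisd outer start and 69.7% at the first Pcyt1a start, but 51.7% at the Pemt inner start, with a median of 52.7% over all promoters. A match or its absence describes these letters only.

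All 10 genes had at least 1 window peak in each of the 6 lists. Over all genes 83.7% (RARα), 70.2% (RARβ) and 83.7% (RXRα) had one with control chow, and 84.8%, 77.8% and 84.3% with RA. The windows held 74 RARα, 29 RARβ and 118 RXRα peaks with control chow. Their numbers with RA were 87, 68 and 118. Lpcat3, the lysophosphatidylcholine acyltransferase that inserts polyunsaturated chains, had the most RARβ peaks in both diets, with 7 under control and 13 under RA. Pisd had the fewest RARα peaks, with 4 under control and 5 under RA.

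Windows differ in length, so peaks were also counted per 100 kb. With control chow the 10 genes had a median of 4.66 (RARα), 1.74 (RARβ) and 7.42 (RXRα), beside medians over all genes of 2.66, 0.957 and 3.77. Under RA the medians were 4.92, 3.72 and 7.07 beside 3.07, 1.92 and 3.69. The median of the 10 genes lay above that of all genes in each list. It stood above the upper quartile of all genes in both RXRα lists, at 6.88 and 6.79, and below it for RARα and RARβ in both diets.

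**Figure D1:**
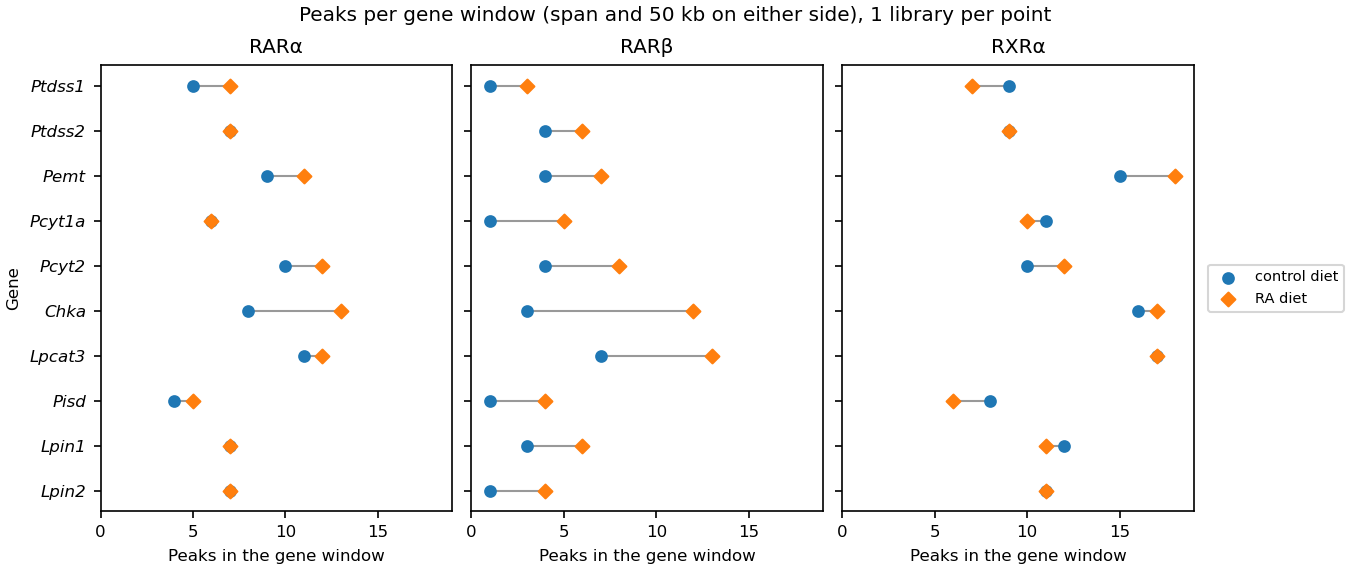
Number of peaks in the window of each of the 10 genes (x axis, gene span with 50 kb on either side) for RARα, RARβ and RXRα, with 1 library for each point and circles for the control diet and diamonds for RA. The RARβ diamonds lie to the right of the circles in all 10 genes, while the RXRα points lie to the right in 3, to the left in 4 and coincide in 3. The whole RARβ list was 1.97 times as long under RA.

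RARβ peaks were more numerous under RA in 10 of 10 windows. The share of all genes with such a rise was not computed for any receptor. The whole RARβ list was 1.97 times as long under RA, and the windows together held 2.34 times as many. With all lists cut to the length of the shortest, the windows held 29 RARβ peaks under control and 37 under RA, with more under RA in 6 genes, equal numbers in 2 and fewer at Pemt and Lpcat3. Chka had 3 RARβ peaks under control and 12 under RA, Pcyt1a 1 and 5, Pcyt2 4 and 8, Pemt 4 and 7, and Ptdss2 4 and 6. Lpin1 had 3 and 6, Lpin2 and Pisd each 1 and 4, and Ptdss1 1 and 3. RARα counts were higher under RA in 6 windows and equal in 4, with a ratio of 1.18 over the windows and 1.25 over the list. At equal list length they were higher in 4, equal in 4 and lower at Ptdss2 and Chka. RXRα counts were equal in sum, though 73 and 65 in windows of 10 kb and 75 and 81 with scores of at least 100. They were higher under RA at Pemt, Pcyt2 and Chka, lower at Ptdss1, Pcyt1a, Pisd and Lpin1, and the same at Ptdss2, Lpcat3 and Lpin2.

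Near the starts, binding was counted within 10 kb of any annotated start. For RARα all 10 genes had such a peak in both diets, where 62.9% of all genes had one under control and 64.3% under RA. For RXRα all 10 had one under control (62.3% of all genes), and all but Ptdss1 under RA (62.7%). For RARβ 8 had one under control (45.0% of all genes), the exceptions being Chka and Lpin2, and all 10 under RA (55.7%). Peaks of all 6 lists were found at 7 of the 10, where the share over all genes was 39.3%. A gene with a RARβ peak under RA and none under control made up 13.2% of all genes, and Chka and Lpin2 were such genes. A gene with an RXRα peak under control and none under RA made up 3.65%, and Ptdss1 was one. None of the 10 had the reverse for RARβ (2.47% of all genes) or RXRα (4.04%), or a RARα peak on 1 diet alone (3.79% under RA, 2.42% under control). With all lists cut to the length of the shortest, Ptdss1 had no RXRα peak this near on either diet. Chka then had no RARβ peak on either diet, so these 2 differences rest on peaks outside the shortened lists. The RARβ difference at Lpin2 remained at equal list length. With scores of at least 100 the RXRα difference at Ptdss1 also remained, while Chka had no RARβ peak on either diet.

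Within 1 kb of a start, RARα had a peak at all 10 genes in both diets, beside 49.9% of all genes under control and 50% under RA. RXRα had one at all 10 under control (43.6%) and at all but Ptdss1 under RA (45.5%). RARβ had one at 7 under control (35.9%), all but Chka, Lpin1 and Lpin2, and at 10 under RA (43.7%). Peaks of all 6 lists lay this close to a start in 6 genes (27.2% of all genes). Chka, Lpin1 and Lpin2 thus had RARβ within 1 kb under RA alone (10.6%), with scores of 58.4, 80.0 and 92.4. Ptdss1 had RXRα under control alone (3.71%), with a score of 142. No gene of the 10 showed the reverse for RARβ (2.75%) or RXRα (5.59%), or RARα on 1 diet alone (2.84% under RA, 2.69% under control).

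**Figure D2:**
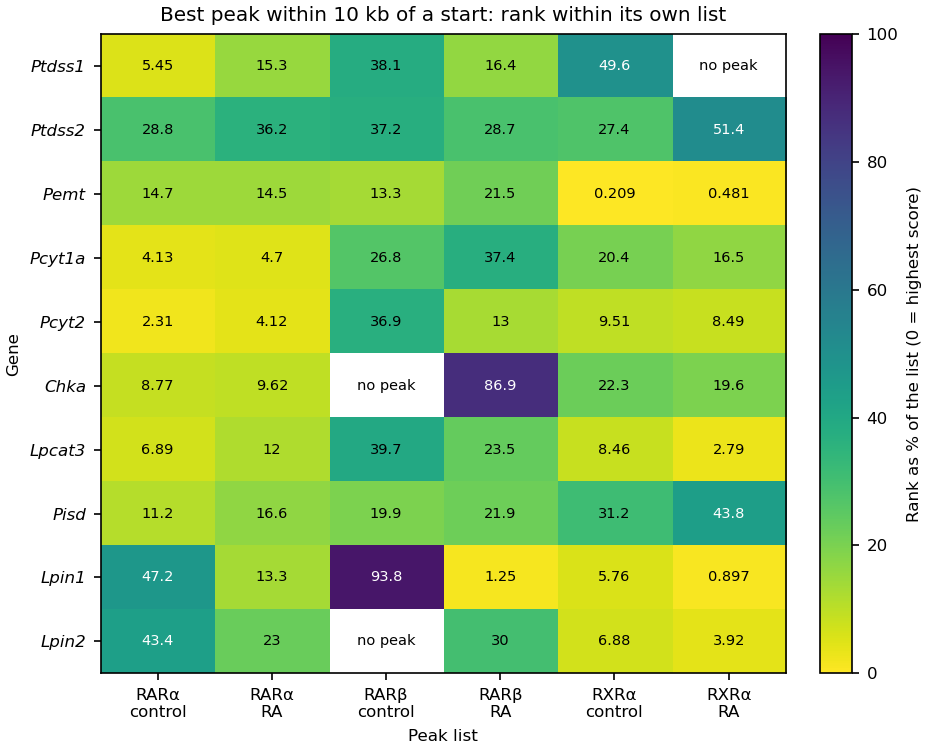
Rank of the highest-scoring peak within 10 kb of a start of each of the 10 genes (rows) in each of the 6 lists (columns, 1 library each), as a percent of the list, where 0 is the highest score and white marks no peak. Pemt in both RXRα lists (0.209 and 0.481) and Lpin1 under RA (1.25 for RARβ, 0.897 for RXRα) hold the highest ranks near a start.

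A peak of the top 10% of its list lay within 10 kb of a start at 5 of the 10 genes for RARα under control (17.2% of all genes) and at 3 under RA (17.5%). For RXRα it did at 5 under control (9.17%) and at 5 under RA (8.56%), the same 5 genes in both, Pemt, Pcyt2, Lpcat3, Lpin1 and Lpin2. For RARβ it did at none under control (7.16%) and at Lpin1 alone under RA (11.2%). The highest RARα peak of the window lay within 1 kb of a start in 6 genes under control (26.6% of all genes with a window peak) and in 5 under RA (22.6%). The highest RARβ peak did so in 4 under control (28.1%) and 3 under RA (23.6%). The highest RXRα peak did so in 2 under each diet, Pemt and Lpcat3 (9.63% and 10.5% of genes with a window peak).

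Chka encodes choline kinase α, which phosphorylates choline in the Kennedy pathway, on chromosome 19 from 3851585 to 3894369. Its RARα peak at the start scored 362 (top 8.77%) under control and 360 (top 9.62%) under RA. RARβ had no peak within 10 kb under control. Under RA it had peaks of low rank at the start, with a score of 58.4 (top 86.9%), and in a region 5.61 kb upstream, with 50.5 (top 98.9%). The RXRα peak at the start scored 304 (top 22.3%), centred 0.524 kb upstream, under control, and the one under RA scored 56.5 (top 94.2%). The RARα ranks were close on the 2 diets, while the RXRα peak at this start stood far lower in the RA list. The highest RXRα peak within 10 kb under RA lay 5.66 kb upstream, with a score of 342 (top 19.6%).

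In 9 regions of the Chka window RARβ had a peak under RA and none under control. A region 43.4 kb after the start, past the gene's end on the side of Tcirg1, had RXRα scores of 614 and 626 under control and RA. There the RARβ list had a peak of 173 (top 19.9%) under RA and none under control. Another, 53.7 kb after the start and 0.258 kb from the Tcirg1 start, had a RARβ peak of 223 (top 10.9%) under RA alone. The highest RARβ peak of the window, at the start of Ndufs8, scored 113 (top 25.6%) under control and 235 (top 9.55%) under RA. The nearest start to these last 3 regions is that of another gene, while for 6 of the 9 regions it is that of Chka.

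Pcyt1a encodes the enzyme that makes CDP-choline, the rate-limiting step of phosphatidylcholine synthesis, on chromosome 16 from 32430921 to 32475065. All 6 lists had a peak across its start. RARα scored 471 (top 4.13%) under control and 457 (top 4.70%) under RA. RARβ scored 111 (top 26.8%) and 123 (top 37.4%), and RXRα 324 (top 20.4%) and 384 (top 16.5%). The start region was thus occupied in each library, with RARα highest by rank.

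Inside Pcyt1a, 10.4 kb after the start, the highest RXRα peak of the control window scored 583 (top 6.76%), and the RXRα peak there under RA scored 248 (top 29.5%). At 21.9 kb the order was the other way, with 479 (top 10.3%) under control and 698 (top 4.72%) under RA. RARβ had a peak at both places under RA, of 107 and 92.3, and at neither under control. The 2 regions inside the gene therefore ranked in opposite order in the 2 RXRα libraries.

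Pcyt2 encodes the matching enzyme for ethanolamine, on chromosome 11 from 120610062 to 120617947 on the minus strand. It is the shortest gene of the 10, at 7.89 kb, and lies among close neighbours. The RARα peak at its start scored 550 (rank 821, top 2.31%) under control and 476 (rank 1827, top 4.12%) under RA. RARβ scored 91.9 (top 36.9%) under control and 208 (top 13.0%) under RA. RXRα scored 499 (top 9.51%) and 547 (top 8.49%), centred 0.823 and 0.809 kb inside the gene. This was the highest RARα start peak by rank among the 10 genes in both diets.

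The higher peaks of the Pcyt2 window lay at other genes. RARα scored 646 (rank 425, top 1.20%) under control and 578 (top 1.84%) under RA at a region 45.1 and 44.8 kb downstream, near the start of P4hb. RXRα scored 845 (top 2.35%) 13.1 kb upstream under control and 700 (top 4.68%) 12.3 kb upstream under RA, nearest to Mafg. Of the 11 regions of this window, 4 had peaks of all 6 lists, and for 2 the nearest start was that of Pcyt2. At the start of Pycr1, 25.8 kb upstream, RXRα had a peak of 187 (top 39.9%) under RA alone and RARα had 1 of 74.4 (top 72.2%) under control alone.

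Pemt encodes phosphatidylethanolamine N-methyltransferase, the liver enzyme that converts phosphatidylethanolamine into phosphatidylcholine, on chromosome 11 from 59970614 to 60046561 on the minus strand. Its highest peaks were RXRα peaks at the inner start at position 60037005, whose sequence is printed above. RXRα scored 1443 (rank 128 of 61128, top 0.209%) under control and 1319 (rank 287 of 59624, top 0.481%) under RA. Their midpoints lay 8 and 95 bases before that start. They were the highest-ranked peaks of any list in the 10 windows.

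At the same inner start RARα scored 108 (top 51.7%) under control and 269 (top 18.4%) under RA. RARβ scored 95.1 (top 34.9%) and 124 (top 36.7%). The highest RAR peaks near a start of Pemt lay instead at the outermost start, 9.56 kb away. There RARα scored 286 (top 14.7%) under control and 305 (top 14.5%) under RA, and RARβ 158 (top 13.3%) and 167 (top 21.5%). RXRα at the outermost start scored 126 (top 54.8%) and 88.1 (top 71.8%). Near the starts of this gene, the RXRα and RAR lists thus had their highest peaks at different places. Over the whole window the highest RARα peak under RA, of 377 (top 8.56%), lay 30.5 kb upstream at no start of Pemt. Another start, between them at position 60040188, was overlapped by no peak.

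Further peaks of the Pemt window were found in 1 diet. RXRα peaks of 239, nearest to Med9, and 232, inside Pemt 47.2 kb after the inner start, overlapped no RXRα peak under RA. An RXRα peak of 227 lay 21.3 kb upstream under RA, and a RARα peak of 156 lay 38.2 kb upstream under RA. A RARβ peak of 94.8 at Rasd1 was found under control alone. These ranked between the top 29.9% and the top 39.1% of their lists. The control peak nearest to Med9, 96.9 kb after the inner start, had RXRα peaks under RA close beside it. They scored 114.5 and 94.8 and lay at 96.2 and 95.6 kb.

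Ptdss1 encodes phosphatidylserine synthase 1, which exchanges the head group of phosphatidylcholine for serine, on chromosome 13 from 66932830 to 66998401. Its start lies beside that of Mterf3, which was the nearer start for 4 of the 5 peaks there. RARα scored 431 (top 5.45%) under control and 296 (top 15.3%) under RA. RARβ scored 90.0 (top 38.1%) and 189 (top 16.4%). RXRα scored 142 (top 49.6%) under control and had no peak within 10 kb of the start under RA.

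Within Ptdss1, 30.8 kb after the start, RXRα scored 682 (top 4.46%) under control and 662 (top 5.40%) under RA. RARα scored 224 (top 24.7%) and RARβ 195 (top 15.3%) at the same region under RA, and neither list had a peak there under control. Both were among the 3 highest peaks of their lists in these windows without a counterpart on the other diet. No other protein-coding start lay nearer than 30.5 kb.

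Ptdss2 encodes phosphatidylserine synthase 2, which uses phosphatidylethanolamine, on chromosome 7 from 141131267 to 141156158. Its start peaks were low by rank. RARα scored 63.6 (top 82.2%) under control and 95.8 (top 62.3%) under RA, and RARβ 81.4 (top 44.8%) and 144 (top 28.7%). RXRα scored 116 (top 58.3%) under control and had no peak across the start under RA. A second RXRα peak, 0.654 and 0.623 kb inside the gene, scored 117 (top 58.0%) under control and 138 (top 51.9%) under RA. In all lists except RARβ under RA the highest peak within 10 kb lay about 8 kb upstream and nearer to the start of Ano9, with scores from 91.5 to 259.

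The highest peaks in the Ptdss2 window lay nearest to the starts of other genes. RARβ scored 245 (rank 773, top 5.16%) under control and 381 (rank 715, top 2.43%) under RA at a region 62.8 and 62.6 kb after the start, in the Hras and Lrrc56 interval. RARα scored 360 (top 8.85%) under control at Rnh1 and 349 (top 10.5%) under RA at a region 38.7 kb upstream, nearest to Sigirr. The highest RXRα peaks of the window were also nearest to Sigirr, with 301 (top 22.6%) under control and 343 (top 19.6%) under RA. A RARα peak of 79.5 there had no counterpart under RA.

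Pisd encodes the mitochondrial phosphatidylserine decarboxylase, on chromosome 5 from 32736301 to 32785642 on the minus strand. Its outer start had peaks of all 6 lists, with midpoints within 0.058 kb of an annotated start. RARα scored 325 (top 11.2%) under control and 284 (top 16.6%) under RA, RARβ 130 (top 19.9%) and 166 (top 21.9%), and RXRα 230 (top 31.2%) and 168 (top 43.8%). For RARα and RXRα score and rank were lower under RA, while the RARβ score was higher under RA at a similar place in a longer list. For all 10 regions of its window the nearest start was that of Pisd itself, and a RARα peak of 371 (top 8.18%) under control and 337 (top 11.5%) under RA lay downstream of the gene. The highest RXRα peaks of the window also lay away from the outer start, with 232 (top 30.9%) under control and 183 (top 40.6%) under RA, and the latter overlapped no RXRα peak under control. A RARα peak of 109 (top 55.5%) downstream was found under RA alone.

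Lpin1 encodes lipin 1, a phosphatidate phosphatase that produces diacylglycerol and also acts as a transcriptional coactivator, on chromosome 12 from 16535669 to 16653903 on the minus strand. A region inside the span, 7.45 to 7.98 kb upstream of the inner start at position 16610966, had peaks of all 6 lists. RARα scored 118 (top 47.2%) under control and 316 (top 13.3%) under RA. RARβ scored 51.8 (rank 14045 of 14968, top 93.8%) under control and 498 (rank 367 of 29467, top 1.25%) under RA. RXRα scored 620 (rank 3524, top 5.76%) and 1158 (rank 535, top 0.897%). In each receptor this region ranked higher under RA, and for RARβ it lay near the bottom of the control list and held the highest rank of any RARβ peak of the 10 windows under RA.

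A second Lpin1 region, 19.9 kb upstream of the inner start, had RXRα scores of 728 (top 3.71%) under control and 800 (top 3.28%) under RA. RARβ scored 135 (top 32.4%) there under RA and had no peak under control. The 250 bases before the inner start, printed above, and the 50 after it were overlapped by no peak. At the outermost start, which lies beside Ntsr2, RARα scored 65.7 and 159, RXRα 223 and 145, and RARβ 80.0 under RA alone. The highest RARα peak of the control window, of 144 (top 38.5%), lay 19.3 kb after the outermost start, and the highest RARβ peak, of 62.2 (top 69.0%), lay 48.0 kb after the inner start and was found under control alone.

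Lpin2 encodes lipin 2, the other main phosphatidate phosphatase of liver, on chromosome 17 from 71183532 to 71249818. At the outermost start RARα scored 129 (top 43.4%) under control and 234 (top 23.0%) under RA. RXRα scored 84.2 (top 72.9%) and 61.6 (top 89.8%) there, and RARβ 92.4 (top 54.6%) under RA alone. The higher RXRα peaks lay inside the gene, around an inner start 21.1 kb from the outer one. At 2.18 kb before that start RXRα scored 349 (top 18.1%) under control and 749 (rank 2337, top 3.92%) under RA, and RARβ scored 141 (top 30.0%) at 2.38 kb under RA alone. At 4.38 to 4.52 kb after it RXRα scored 578 (top 6.88%) under control and 380 (top 16.7%) under RA. The highest RARβ peak of the control window, of 58.1 (top 77.1%), lay past the gene's end and was found on that diet alone. As in Pcyt1a, a pair of RXRα regions in 1 gene ranked in opposite order on the 2 diets.

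Lpcat3, on chromosome 6 from 124663094 to 124704716, had peaks of all 6 lists at its start, shown above. RARα scored 396 (top 6.89%) under control and 331 (top 12.0%) under RA. RARβ scored 87.9 (top 39.7%) and 160 (top 23.5%). RXRα scored 529 (rank 5173, top 8.46%) and 844 (rank 1661, top 2.79%). The Lpcat3 window also held the most regions with all 6 lists, 6, and for 5 of its 20 regions the nearest start was that of Lpcat3. A region 56.7 kb after the start, nearest to Phb2, had RXRα scores of 481 (top 10.2%) and 838 (top 2.84%). The highest RARβ peaks of the window scored 110 (top 27.2%) under control, nearest to Grcc10, and 223 (top 10.9%) under RA, at the start of Emg1.

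**Figure D3:**
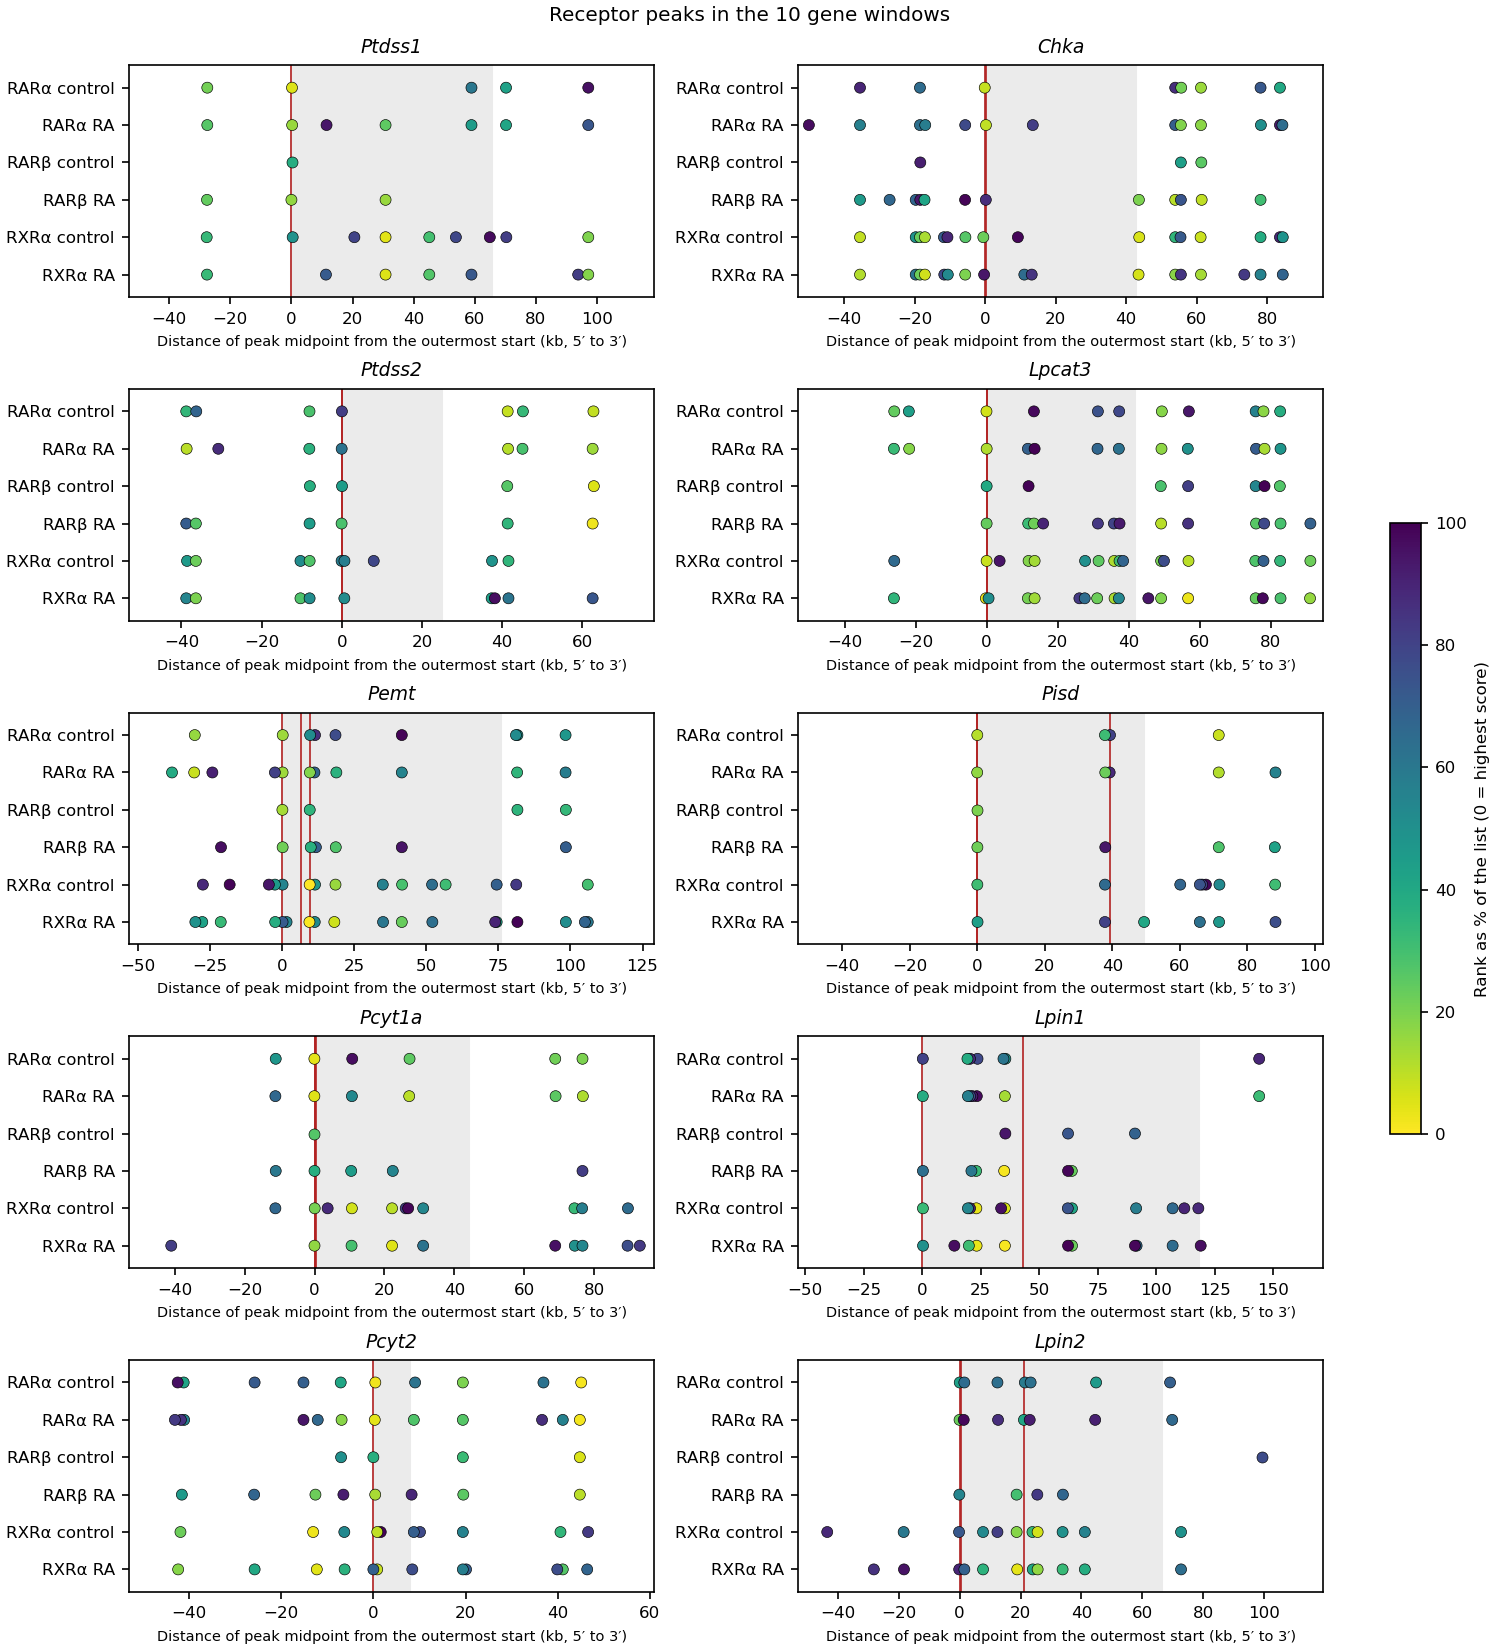
Position of each peak midpoint in the 10 gene windows (x axis, distance from the outermost start in kb, 5′ to 3′), with a row for each list, grey for the gene span, red lines for annotated starts and colour for rank as a percent of the list. The RXRα peaks of Pemt near 9.56 kb are in the top 0.209% and 0.481% of their lists, and the Lpin1 region near 35.3 kb is in the top 0.897% for RXRα and 1.25% for RARβ under RA, but in the top 93.8% for RARβ under control.

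Overlapping peaks of the 6 lists were merged into 151 regions in the 10 windows, out of 87802 in the genome. Peaks of all 6 lists were found in 20 (13.2%, against 9.75% of all regions), and 41 came from 1 list (27.2% against 29.4%). Regions of RARs with no RXRα numbered 13 (8.61% against 20.1%), and those of RXRα with no RAR 54 (35.8% against 36.3%). All lists but RARβ control were present in 22 (14.6% against 6.69%). RARβ under RA but not control was found in 41 (27.2% against 19.8%), with 9 at Chka and 6 at Lpcat3, and the reverse in 3 (1.99% against 3.60%), at Pemt, Lpin1 and Lpin2. In 74 of the 151 regions the nearest start was that of 1 of the 10 genes, so the windows also sample their neighbours.

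A peak counted as shared when its overlap with a peak of the partner list covered 25% or more of both peaks. Of the 74 RARα window peaks under control 95.9% (95% Wilson interval 88.7% to 98.6%) were shared with RARα under RA, beside 84.2% of the whole list. Of the 87 under RA 79.3% (69.6% to 86.5%) were shared with control, beside 68.4%. RARβ under RA had 68 window peaks, of which 38.2% (27.6% to 50.1%) had a partner under control, beside 38.2% of the list, and of the 29 under control 89.7% (73.6% to 96.4%) were shared with RA, beside 75.8%. For RXRα 74.6% of control peaks (66.0% to 81.6%) and 76.3% of RA peaks (67.8% to 83.0%) were shared, beside 78.7% and 80.3%. For RARα, in both directions, the whole-list share lay below the interval of the windows, and for the other receptors it lay inside. The intervals cover counting error only, take peaks of the same window as independent, and were not used as a test. Of the RARα window peaks under RA, 23 of 25 within 10 kb of a start and 46 of 62 farther away were shared with control.

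**Figure D4:**
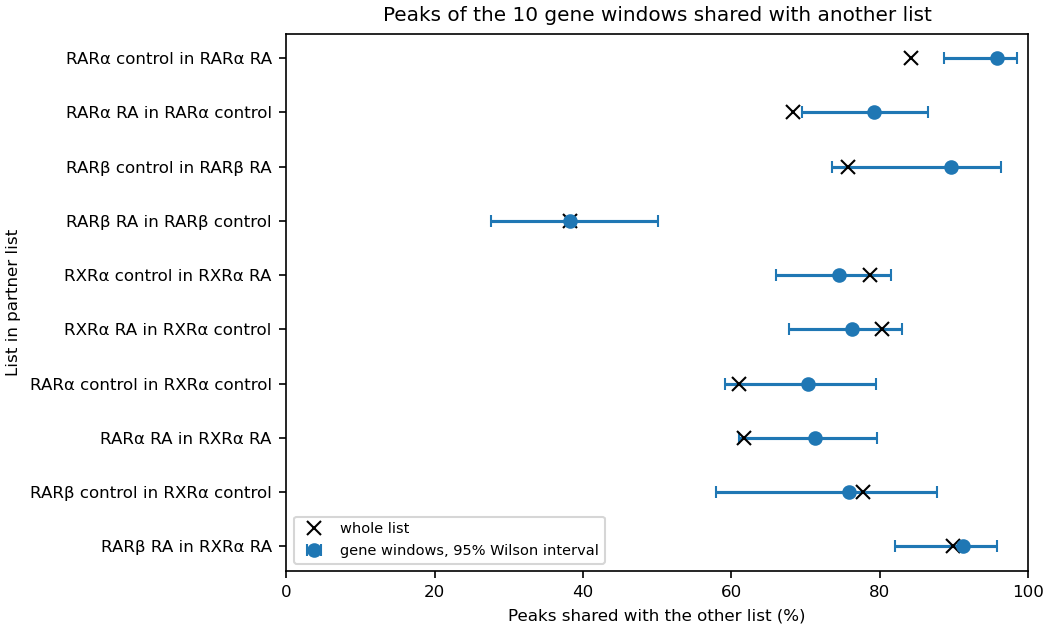
Percent of window peaks of 1 list that are shared with another list (x axis), with dots and bars for the 10 gene windows and their 95% Wilson interval, and crosses for the whole list. The RARβ peaks under RA have the lowest share with their control list, at 38.2% in the windows and in the whole list alike.

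Each RAR was also set against RXRα and against the other RAR on the same diet. Under RA 91.2% of RARβ window peaks (82.1% to 95.9%) and 71.3% of RARα window peaks (61.0% to 79.7%) were shared with RXRα, beside 89.9% and 61.7% of the lists. Under control the shares were 75.9% and 70.3%, beside 77.8% and 61.1%. Of the RARβ window peaks 86.2% under control and 77.9% under RA were shared with RARα, beside 74.2% and 72.1% of the lists. At equal list length the window shares with RXRα under RA were 59.5% for RARβ and 24.2% for RARα, under control 31.0% and 19.4%, and those of RARβ with RARα 58.6% under control and 45.9% under RA.

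A list of 40 other genes of phospholipid and phosphatidate synthesis was counted the same way. Within 10 kb of a start 34 had a RARα peak, 24 a RARβ peak and 32 an RXRα peak under control, and 34, 33 and 34 under RA. The shares over all genes were 62.9%, 45.0% and 62.3% under control and 64.3%, 55.7% and 62.7% under RA. Peaks of all 6 lists were found at 24 of the 40 (60.0%, beside 39.3% of all genes). No list had a peak at Agpat4, Pcyt1b, Lpcat2, Mboat1 and Mboat2, of which Pcyt1b encodes the other enzyme that makes CDP-choline. RARβ had a peak under RA and none under control at 9 (22.5%, beside 13.2% of all genes), and the reverse at 0. These 9 were Gpat3, Agpat3, Chkb, Etnk1, Chpt1, Cds1, Tamm41, Lpcat1 and Lclat1.

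Of these 9, the kinases Chkb and Etnk1 start the Kennedy pathway beside Chka, and Chpt1, cholinephosphotransferase, ends its choline branch. The RARβ peak under RA scored 160 (top 23.6%) at Chkb, 163 (top 22.7%) at Etnk1 and 209 (top 12.9%) at Chpt1. RARα had peaks at all 3 on both diets, of 537 and 359 at Chkb, 547 and 407 at Etnk1, and 122 and 275 at Chpt1 under control and RA. Lpcat1 had the lowest RARβ score of the 9, at 62.0 (top 82.2%), and no RXRα peak within 10 kb on either diet.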

How the data were processed

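The authors sequenced single-end 35 bp reads, aligned them to mm10 with Bowtie and called peaks for each library with MACS. CASAVA 1.4 is named in the submitters' processing notes. The deposited files are 6 peak lists, and the value used is the deposited score of each peak, which the authors' peak caller made. It was not normalized between libraries, so scores were ranked within 1 list. No read counts were used, so the depth of each library is unknown. Per-sample columns left unused numbered 0.

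Peaks were assigned in Python 3.11.15 with numpy 2.4.6 and pandas 2.3.3 to gene spans of GRCm38.p6, which is mm10. Starts were the outermost start of each gene and those of the RefSeq promoter table. Strand came from RefSeq for 17492 genes and GENCODE for 4045. The share of all genes meeting each rule was computed with the same rule. The interval and overlap code was tested on simulated peaks.

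The text names the 10 genes, the highest window peak and highest peak within 10 kb of a start for each list, the 3 highest window peaks per list without overlap on the other diet, and 2 classes of the 40-gene list (no peak, or RARβ under RA alone). Other peaks at the same regions were named after their values were seen. The genes and lists were chosen with earlier results of these data known. Alternatives were a score minimum of 100, lists cut to an equal length of 14968, windows of 10 kb, peaks nearest to the gene itself, overlap of any base, and starts within 1 kb or at the outermost start.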

Additional observations from a re-analysis of the deposited data

Results flagged for a closer look

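The number of window peaks moved in opposite directions between receptors from control to RA in 4 genes, with 1 library each, and these differences were not tested. At Ptdss1 RA minus control was 2 for RARα and -2 for RXRα, a difference of 4, and RARβ gave the same difference of 4. At Pcyt1a it was 4 for RARβ and -1 for RXRα, a difference of 5. At Pisd it was 1 for RARα and -2 for RXRα, a difference of 3, and 3 for RARβ, a difference of 5. At Lpin1 it was 3 for RARβ and -1 for RXRα, a difference of 4. Over all 21537 genes, a higher RARα and a lower RXRα count under RA was found in 18.1%, and a higher RARβ and a lower RXRα count in 22.3%. The RA list was longer than the control list for RARα (1.25 times) and RARβ (1.97 times) and shorter for RXRα (0.975 times).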

How the results depend on the processing

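Of 87 alternative values for 21 results, 52 stayed near the reported value and 35 moved. The rule for near was wide. A fall from 118 to 81 RXRα window peaks under RA, with scores of at least 100, still passed. A share passed inside the 95% interval of the reported share, as for RARα under RA shared with control, at 79.3% and then 69.8%. All 87 are single counts and shares, and comparisons between them can turn. At equal list length the control windows held fewer RXRα than RARα peaks, and the RA windows more RARβ than RARα peaks. No paired analysis was possible because each receptor and diet had 1 library and the labels give no replicate numbers. With scores of at least 100 the windows held 42 RARα, 10 RARβ and 75 RXRα peaks under control and 53 RARα and 37 RARβ under RA. A RARβ control peak then lay within 10 kb of a start in 3 genes (23.0% of all genes), and Chka had a RARβ peak there on neither diet. The share of RARβ peaks under RA found under control was then 27.0%, that of RARα shared with RXRα 50% under control and 58.5% under RA, and that of RARβ control with RARα 100%. With all lists cut to the length of the shortest, the windows held 31 RARα and 28 RXRα peaks under control, and 33 RARα, 37 RARβ and 32 RXRα under RA. RARβ under RA was then shared with control at 51.4%, RARα with RXRα at 19.4% and 24.2%, RARβ with RXRα at 31.0% and 59.5%, and RARβ with RARα at 58.6% and 45.9%, under control and RA. With 10 kb windows the counts were 40, 16 and 73 under control and 45, 38 and 65 under RA. Where the nearest start was the gene itself they were 30, 12 and 62, and 37, 35 and 55, and RXRα under RA was shared with control at 85.5%. That last share and the outermost start alone were chosen after seeing the data. Depth limits every missing peak: it shows only that none passed the caller's threshold in that library.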

Other observations

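Among the other phospholipid genes, several had RXRα peaks within 10 kb of a start of higher rank than most described above. Agpat2, which makes phosphatidate, had an RXRα peak of 1680 (top 0.0982%) under control and 1500 (top 0.240%) under RA. Pla2g6, a phospholipase that removes fatty acids from phospholipids, had 1018 (top 1.19%) and 1607 (top 0.158%). Gpat4, a glycerol-3-phosphate acyltransferase, had 1088 (top 0.921%) and 1145 (top 0.936%). Agpat1, another enzyme that makes phosphatidate, had a RARβ peak of 523 (top 1.06%) under control and 929 (top 0.312%) under RA. These genes were chosen after their values were seen.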
